A study of Astatotilapia calliptera and Haplochromis burtoni and Pundamilia nyererei with 40 samples.

Results

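Testes and ovaries of Astatotilapia calliptera (AC), a haplochromine cichlid of the Lake Malawi group, were compared gene by gene through their messenger RNA. The comparison takes 8 of the 40 libraries of the series, 4 labelled testes and 4 labelled ovary, each with its own replicate number. Of the 26977 genes in the deposited table, 16908 carry a name in it, and the programmes described here are built from those names: 23 lists that hold 664 different genes, 16 of them in more than 1 list. The fish were wild type and raised in aquaria, with no treatment in either group, and organs of size-matched individuals were dissected and frozen. The reproductive stage of the gonads is not given in the sources used here. Whether each library is a separate animal is not stated in the labels, so the p-values measure the spread between these libraries.

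In a vertebrate testis, germ cells pass from dividing spermatogonia through meiosis into spermatids, which build a flagellum, and do so next to Sertoli cells that nurse them and Leydig cells that make androgens. In an ovary, oocytes pause in meiosis, grow, and store maternal RNA, egg envelope proteins and yolk, inside follicles whose granulosa and theca cells make estrogen and its precursors. In fishes the balance between androgen and estrogen is tied to the fate of the gonad, and aromatase, which turns androgen into estrogen, stands at that branch.

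Levels are given as TPM, transcripts per 1000000 transcripts, which takes the length of a gene into account and so lets genes be compared. Differences are log2 fold changes of testes over ovary from the count model of edgeR, with TMM scaling. An approximate 95% interval was derived from its test, and a gene was called at an adjusted p under 0.05 over all genes tested. Assigned counts lay between 20608368 and 22360242 in testes and between 18240974 and 21840607 in ovaries. Ovary 1 stood apart from the other ovaries: its correlation with them over genes was between 0.83 and 0.86, against 0.94 to 0.97 among ovaries 2 to 4, its 100 most abundant genes took 28.4% of counts, and its TMM factor was 0.616, against 1.03 to 1.14 in the other ovaries. Scaled counts of ovary 1 are therefore raised relative to its TPM, so a gene can have a higher mean TPM in testes and a log2 fold change near 0. Testes 4 was closest to ovaries 2 to 4, with correlations of 0.87 to 0.91, against 0.81 to 0.87 for testes 1 to 3. Counts of list members are given with and without ovary 1, save for most lists of other cell types, such as blood, vessel, liver, muscle and nerve markers. They stand beside the share over all genes, which without ovary 1 was 19.5% higher and 17.0% lower in testes.

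The libraries labelled testes held the RNA of testis genes and also that of many oocyte genes, for egg envelope genes within or above the range of the ovaries as a sum. Egg envelope genes, whose products form the coat of the egg, summed to between 14056 and 25693 TPM in testes and between 13245 and 21036 TPM in ovaries. In the 6 AC brain libraries, made by another protocol, the same sum was between 7.56 and 23.8 TPM. Brain was not low for every list, as given below for some of them. The envelope gene zpax1 (chromosome 15, 12135319 to 12140055, assembly fAstCal1.2) had 3831, 3889, 2451 and 4552 TPM in testes, against 2352, 2005, 2866 and 3213 TPM in ovaries. It was chosen after its values were seen, as the named gene with the largest share of counts in testes. In the same libraries the ovarian aromatase gene cyp19a1a was nearly silent, with 0.0803, 0.111, 0.598 and 0.696 TPM in testes, against 223, 433, 148 and 51.8 TPM in ovaries.

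The testes of both other Lake Malawi species of the series showed the same combination in the counts per 1000000 counts (CPM) of the separate table that the authors made with STAR and TEtranscripts. There the egg envelope sum was 16756 to 31473 in 2 Maylandia zebra testes and 16634 to 29991 in 4 Tropheops sp. 'mauve' testes. On that scale AC testes had 13535 to 26590 and AC ovaries 12617 to 24202. The figla gene, which encodes a transcription factor of oocytes, had 125 to 185 CPM in M. zebra testes and 161 to 181 in T. sp. 'mauve' testes. It had 163 to 243 CPM in AC testes and 207 to 254 in AC ovaries, so the testes of both other species lay below every AC ovary. In these testes cyp19a1a stayed at 0.407 CPM or below. The source of the oocyte RNA in testes was not tested. Every comparison here is therefore between libraries labelled testes and libraries labelled ovary, not between pure male and female germ cells, and a change in the number of cells of a type cannot be told apart from a change in RNA per cell.

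Among the 17500 genes tested, 3722 were called (21.3%), of which 2092 were higher in testes (12.0%) and 1630 lower (9.31%). Of the 13744 named genes tested, 1522 were higher in testes (11.1%) and 1307 lower (9.51%). The count over all genes depended on ovary 1, without which 6620 were called (36.5%, with 19.5% higher and 17.0% lower), and it was 2021 without testes 1, 2431 without testes 2 and 2235 without testes 3. The TMM-scaled counts of the groups did not overlap for 19.8% of genes on the higher side and 13.0% on the lower side. With TMM scaling the median log2 fold change over all genes was -0.00, and with total counts it moved to 0.16. More genes reached 1 TPM in testes, with 16130, 15742, 16576 and 15725 in testes against 11124, 15909, 15031 and 14355 in ovaries, but ovary 2 lay within the testes (exact permutation test, two-sided, p = 0.0857).

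**Figure D1:**
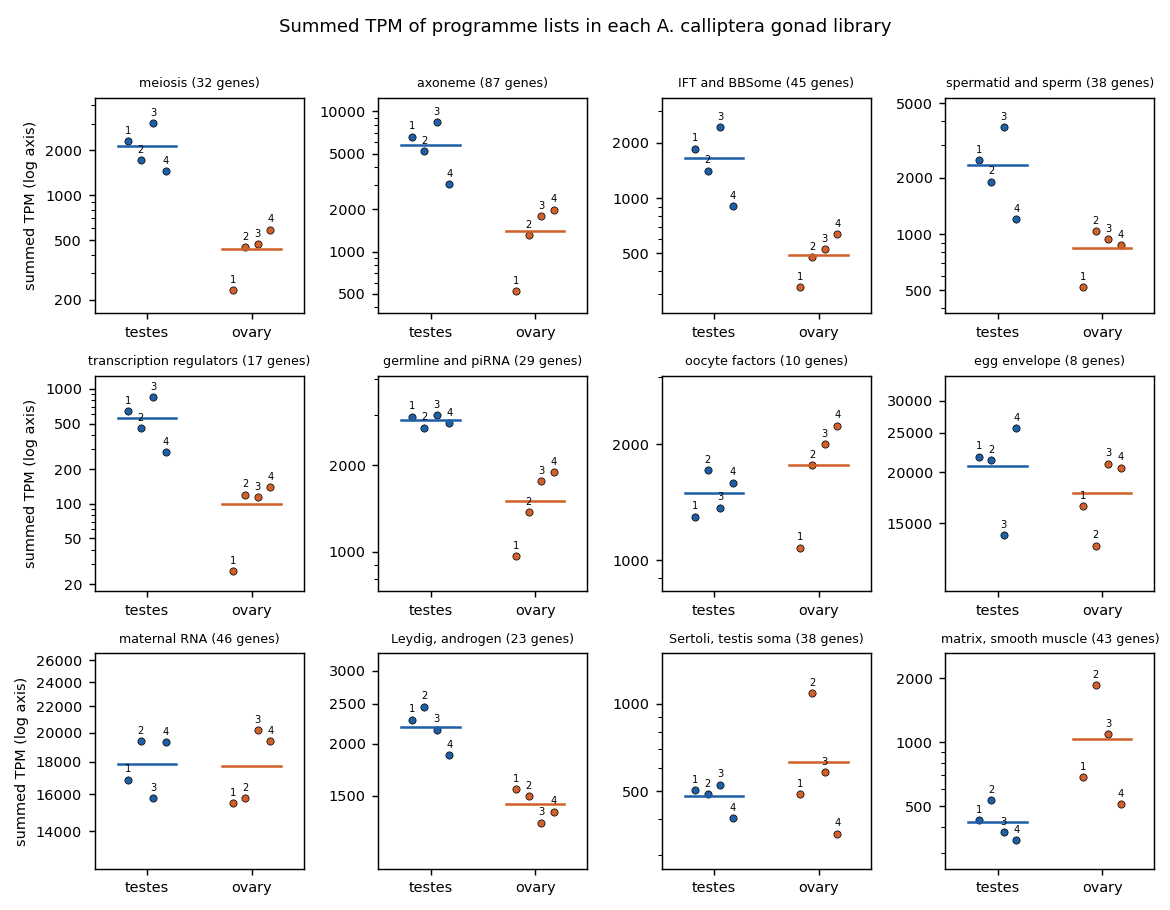
Summed TPM of 12 gene lists in each library (logarithmic axes, bars at the means), with the 4 testes on the left of each panel and the 4 ovaries on the right. Meiotic, axoneme, intraflagellar transport, spermatid, regulator, germline and Leydig lists separate the organs. Egg envelope genes lie at 14056 to 25693 TPM in testes and 13245 to 21036 TPM in ovaries.

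Among meiotic chromosome and recombination genes, those called over the 8 libraries were higher in testes. Of 32 members, all tested, 19 were called higher (59.4%, beside 12.0% over all genes) and none lower. The median log2 fold change was 1.85, beside -0.00 over all genes. At an unadjusted p under 0.05, 23 were higher and 1 lower, beside 3123 and 3130 of 17500 over all genes. DESeq2 called 21 higher and 0 lower, beside 2942 and 2383. Without ovary 1, 24 were higher and 1 lower. Summed TPM of the list was 1450 to 3020 in testes and 231 to 589 in ovaries.

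The synaptonemal complex holds homologous chromosomes together. Its transverse filament gene sycp1 (ENSACLG00000022159, chromosome 5, 7689385 to 7697838) had 249, 172, 381 and 68.1 TPM in testes, against 0, 0.204, 0.196 and 0.1 TPM in ovaries. Its log2 fold change was 10.27 (8.38 to 12.16, adjusted p = 0.00033). The axial element gene sycp3 (chromosome 7, 1021509 to 1025338) had 267, 182, 376 and 181 TPM in testes and 2.58, 2.84, 3.05 and 2.9 TPM in ovaries (log2 fold change 6.09, 5.24 to 6.94, adjusted p = 0.000148). For both genes the groups were far from overlapping, and testes 4 was the lowest testis. Recombination genes moved with them: dmc1, the meiotic recombinase, averaged 120 ± 60.8 TPM in testes and 2.84 ± 2.86 TPM in ovaries (SD, n = 4 each; log2 fold change 5.14, adjusted p = 0.00191). The axis protein gene hormad1 (log2 fold change 7.53), the meiotic cohesin gene smc1b (7.67) and tex11, which acts in crossover formation in mouse (9.56), were also higher and were chosen after their values were seen.

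Other meiotic genes had lower fold changes or none that passed. The rec114 gene, needed for meiotic double-strand breaks in mouse, was higher by 2.07 (adjusted p = 0.0313), and terb1, which ties telomeres to the nuclear envelope, by 1.55 (adjusted p = 0.0435). The rec114 call was lost without any of the 4 testes, ovary 3 or ovary 4 (adjusted p between 0.0561 and 0.0814), and the terb1 call without testes 1, 2 or 3 or ovary 2 or 3 (0.0771 to 0.125). Ovaries had 8.07, 53.7, 44.6 and 101 TPM of terb1, against 219, 128, 174 and 106 TPM in testes, so the RNA of this gene was present in both organs. The strand exchange cofactor gene mnd1, chosen after its values were seen, had 48.7, 46.2, 52.4 and 49.6 TPM in testes and 27.6, 58.2, 52.6 and 69.9 TPM in ovaries, with an interval of -1.06 to -0.10 (adjusted p = 0.0832). Without ovary 1 it was called lower, by -0.45 (adjusted p = 0.0256).

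**Figure D2:**
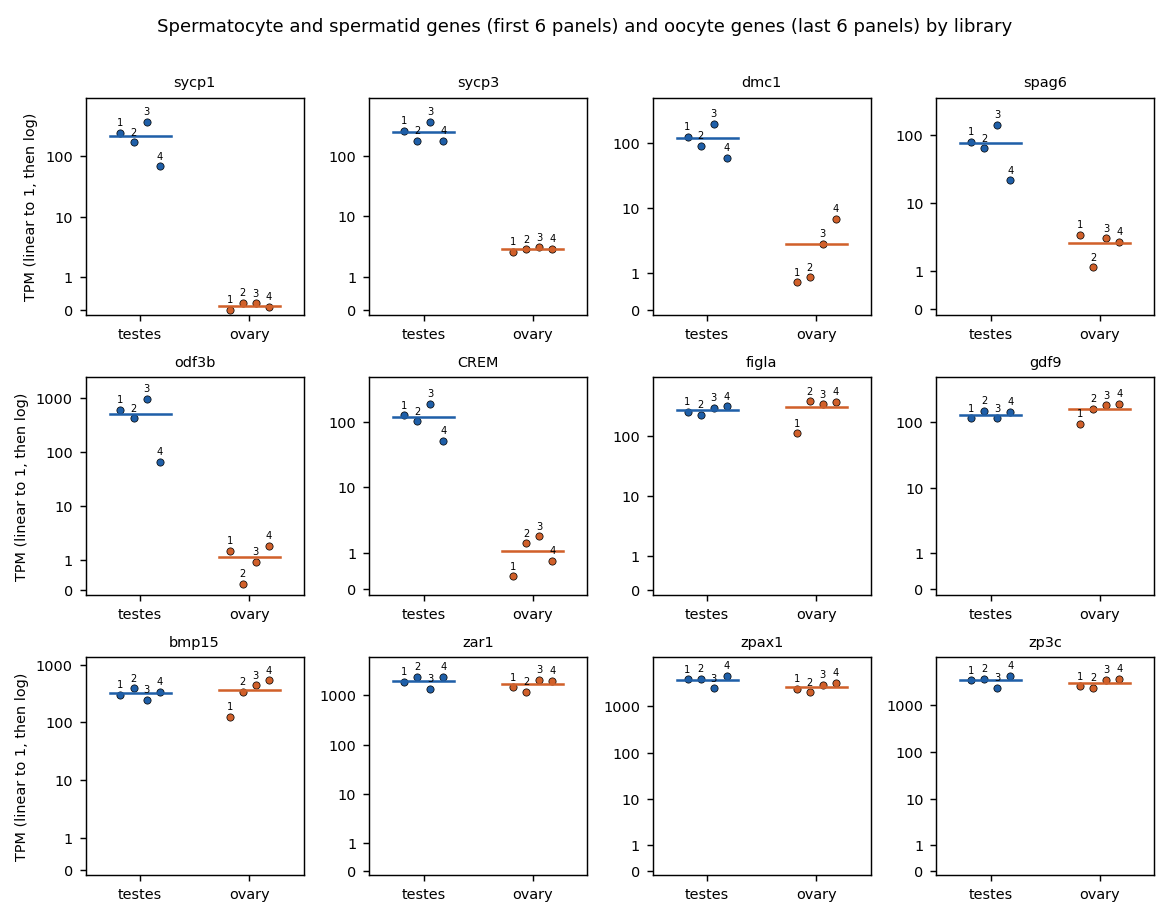
TPM per library of 12 germ cell genes (axis linear up to 1 and logarithmic above), testes on the left, bars at the means. The upper genes (sycp1, sycp3, dmc1, spag6, odf3b, CREM) separate the organs, with sycp1 at 68.1 TPM or more in testes and 0.204 TPM or less in ovaries, while the oocyte genes (figla, gdf9, bmp15, zar1, zpax1, zp3c) overlap.

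Genes of the axoneme, the microtubule core of the motile cilium and the sperm flagellum, had the highest share of members called among the germ cell lists. Of 87 members, 85 were tested, 67 were higher in testes (78.8%, beside 12.0% over all genes) and 1 lower. The median log2 fold change was 4.44. Without ovary 1, 71 were higher and 1 lower. Their summed TPM was 6592, 5221, 8344 and 3040 in testes, against 522, 1310, 1783 and 1996 in ovaries, so that the groups did not overlap.

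The ropn1l gene (ENSACLG00000020737, chromosome 9, 13109677 to 13113504), whose product belongs to the radial spoke and fibrous sheath of the flagellum, had no counts in any ovary. In testes it had 103, 69.2, 144 and 12.2 TPM, at least 2873-fold higher by a floor of 3 counts over the ovary group. Its RNA was not detected in ovaries at this depth, and the lowest testis was testes 4.

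The central apparatus gene spag6 had 78.3, 62.9, 139 and 21.4 TPM in testes and 3.42, 1.14, 3.02 and 2.67 TPM in ovaries (log2 fold change 4.50, adjusted p = 0.00297). The tektin gene tekt1 was higher by 4.56 (adjusted p = 0.00426), enkur, which encodes a calmodulin-binding microtubule inner protein, by 5.45 (0.00303), and morn3 by 2.97 (0.00522). The dynein light chain gene tctex1d2 had 297, 201, 429 and 95.4 TPM in testes and 1.85, 6.4, 9.97 and 6.85 TPM in ovaries (log2 fold change 5.06). None of these overlapped between the organs. The gene cfap20, a conserved cilium gene, was higher by 1.37 (adjusted p = 0.0262), a call lost without testes 1, 2 or 3 or ovary 2, 3 or 4 (0.0575 to 0.0836).

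CFAP61, a radial spoke gene, had 32.7, 31.7, 32.4 and 19.3 TPM in testes and 0.308, 0.176, 10.9 and 1.74 TPM in ovaries, and was not called (log2 fold change 3.06, 0.65 to 5.46, adjusted p = 0.0716). Without ovary 3, its highest ovary, the log2 fold change was 5.11 (adjusted p = 0.00877), and it was also called by DESeq2 (3.10, 0.00467) and over all 14 AC libraries (2.98, 0.034). The member called lower was dnai2b, a copy of a dynein intermediate chain gene, chosen after its values were seen. It had 4.59, 9.45, 6.61 and 7.85 TPM in testes against 19.1, 8.22, 18.6 and 32.2 TPM in ovaries (log2 fold change -2.01, adjusted p = 0.0221), and ovary 2 lay within the testes. Its call was lost without testes 1, 3 or 4 (0.0546 to 0.0742).

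Intraflagellar transport carries building material along the axoneme, and the BBSome is a cargo adaptor on that route. Of 45 members, 41 were tested and 22 were higher in testes (53.7%, beside 12.0% over all genes), none lower. The median log2 fold change was 1.77. At an unadjusted p under 0.05, 27 were higher and 1 lower, beside 3123 and 3130 of 17500 over all genes. DESeq2 called 26 higher and 1 lower, beside 2942 and 2383. Without ovary 1, 33 were higher and 1 lower. In brain the list summed to 1050 to 1182 TPM, against 910 to 2447 TPM in testes and 327 to 639 TPM in ovaries. The transport train gene ift46 (ENSACLG00000008902) had 76.6, 56.7, 104 and 20.7 TPM in testes and 7.22, 9.97, 8.48 and 8.03 TPM in ovaries, with no overlap (log2 fold change 2.69, adjusted p = 0.00406). Its partner ift22 was higher by 2.66 (0.00797), a call lost with the STAR and TEtranscripts counts (1.92, adjusted p = 0.0502). A second gene named ift46 was listed at 0 in all 8 libraries, and whether reads of the copies can be separated was not tested. The small GTPase gene ARL3, which shares its name with another entry, was higher by 2.04 (adjusted p = 0.00506). For cluap1, a member of the same trains, the log2 fold change was 1.77 (adjusted p = 0.0223), and the call was lost without testes 1, 2 or 3 or ovary 2 or 3 (0.0501 to 0.0712).

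Spermatid, sperm and fertilization genes that were called were mostly higher in testes. The 38 members come from 15 of the 63 entries of this list, since the others matched no name. Of them 31 were tested, with a median log2 fold change of 1.74. In testes 14 were higher (45.2%, beside 12.0% over all genes) and 2 lower (6.45%, beside 9.31%). Without ovary 1 the counts were 22 and 3. The list is not particular to sperm: it summed to 1668 to 1982 TPM in brain, against 1196 to 3721 TPM in testes and 520 to 1034 TPM in ovaries. The gene spata18 (ENSACLG00000016247, chromosome 23, 8354586 to 8358962), known in mammals for mitochondrial quality control, had 220, 116, 510 and 28.8 TPM in testes and 0, 0, 0.0992 and 0 TPM in ovaries. Its ratio of summed counts was 8561 (counting interval 2370 to 70700). The outer dense fiber gene odf3b had 609, 428, 973 and 66.2 TPM in testes and 1.52, 0.212, 0.952 and 1.85 TPM in ovaries (log2 fold change 8.42, adjusted p = 0.0014). In both, testes 3 was highest and testes 4 lowest, yet testes 4 was above every ovary.

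KLHL10, a spermatid ubiquitin ligase adaptor in mouse, is a name shared by 10 genes of the table, among which reads can be split. The copy ENSACLG00000012119 had the highest level and was higher in testes by 3.80 (adjusted p = 0.014). The fertilization gene dcst1, a sperm membrane protein gene, had 65, 41.8, 78.9 and 10.9 TPM in testes and 12.6, 4.36, 4.1 and 5.6 TPM in ovaries. Testes 4 lay within the ovaries, and the call, which lay just under the threshold, was lost without testes 1, 2 or 3 or any of ovaries 2 to 4 (adjusted p between 0.0918 and 0.13). Both members called lower were spaca4l, a relative of a sperm acrosome gene, with 29.3 ± 6.59 TPM in testes and 110 ± 41.1 TPM in ovaries (SD, n = 4 each; log2 fold change -2.69, adjusted p = 0.00267), and spata13, which encodes a guanine nucleotide exchange factor and was chosen after its values were seen (-0.91, adjusted p = 0.016). In zebrafish, a relative of the mammalian acrosome gene acts on the egg surface. The spata13 call was lost without testes 1, 2 or 4 (0.0536 to 0.061).

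Of 17 genes for regulators of spermatocyte and spermatid transcription, 15 were tested. In testes 7 were higher (46.7%, beside 12.0% over all genes) and 1 lower (6.67%, beside 9.31%). The median log2 fold change was 2.14, and without ovary 1 the counts were 11 and 1. CREM, the cAMP-dependent activator of spermatid genes in mouse, had 125, 101, 189 and 51.5 TPM in testes and 0.357, 1.4, 1.79 and 0.785 TPM in ovaries (log2 fold change 6.40, 5.19 to 7.61, adjusted p = 0.00033). The factors that drive ciliary genes differed as well: rfx2 (chromosome 17, 37524678 to 37555600) had 89.8, 53.9, 97.3 and 19.9 TPM in testes and 0.774, 12.5, 9.23 and 9.76 TPM in ovaries (log2 fold change 2.97, adjusted p = 0.015), and rfx1a was higher by 6.25 (0.00174).

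The meiotic regulator mybl1 reached 4.63 ± 1.04 TPM in testes and 0.119 ± 0.143 TPM in ovaries (SD, n = 4 each; log2 fold change 4.98, adjusted p = 0.00218). The ciliogenesis factor gene foxj1a was low, at 0.267 to 1.09 TPM in testes and 0.0678 TPM or less in ovaries (3.85, 0.00914). The bromodomain gene brdt, which acts on spermatid chromatin in mouse, was higher by 2.96 (0.0058). CCNO, a cyclin gene with a role in cells with many cilia and in oocytes of mouse, was the member called lower, at 2.74 ± 0.276 TPM in testes and 9.62 ± 3.99 TPM in ovaries (-2.09, 0.00411), and was chosen after its values were seen.

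**Figure D3:**
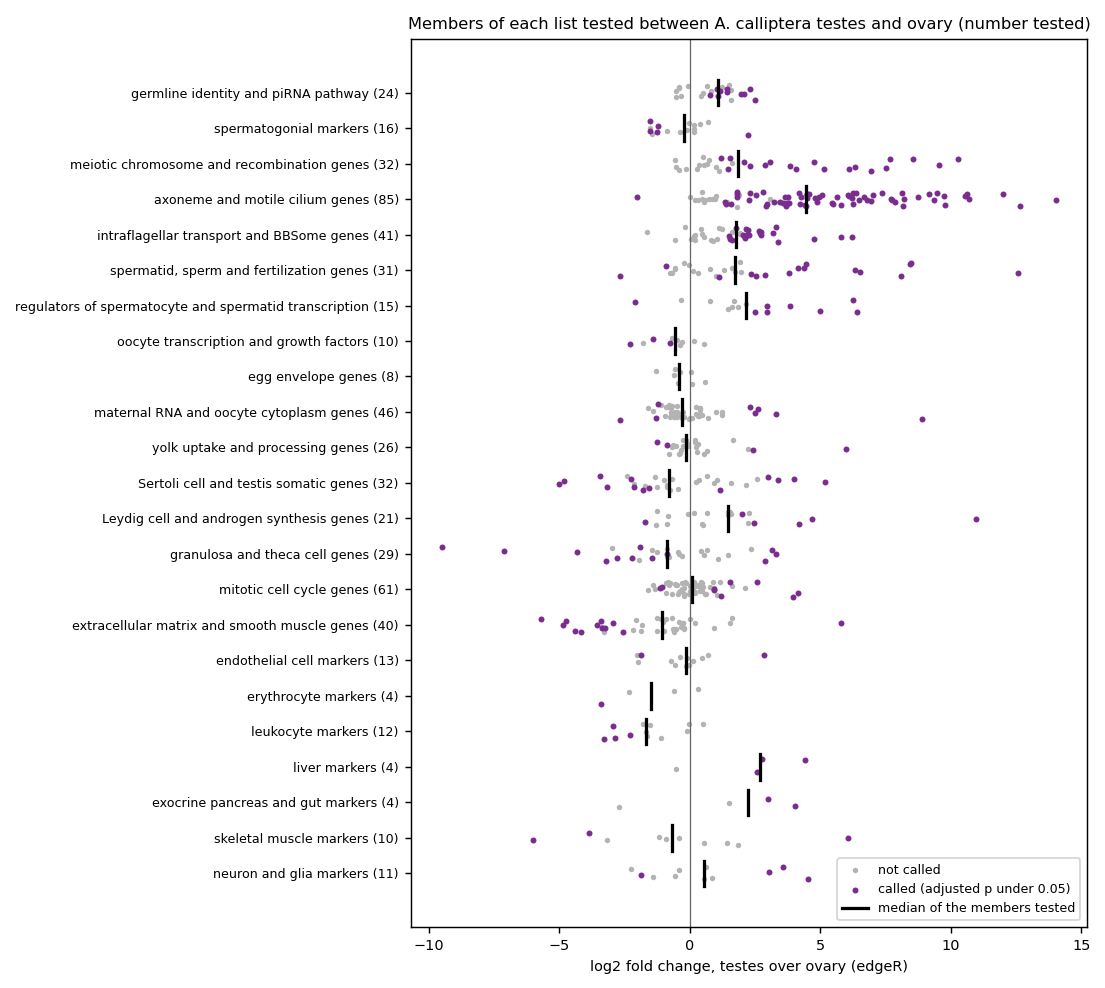
Log2 fold change, testes over ovary, of every tested member of each list, with called members in colour and the median of each list as a bar. Medians reach 4.44 for the axoneme list and lie at -0.40 for egg envelope genes and -1.06 for extracellular matrix genes, beside -0.00 over all genes.

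Genes of germline identity and of the piRNA pathway, which silences transposable elements through small RNAs bound to Piwi proteins, were present in both organs and higher in testes for part of the list. Of 29 members, 24 were tested, 10 were higher in testes (41.7%, beside 12.0% over all genes) and none lower. Without ovary 1 the counts were 14 and 0, and the median log2 fold change over the 8 libraries was 1.07. At an unadjusted p under 0.05 there were 12 higher and 0 lower, beside 3123 and 3130 of 17500 over all genes. By DESeq2 there were 11 and 0, beside 2942 and 2383. The germ cell helicase gene ddx4 (vasa) had 211, 191, 182 and 247 TPM in testes and 44.8, 60.8, 106 and 101 TPM in ovaries (log2 fold change 1.14, 0.58 to 1.71, adjusted p = 0.0121). The Piwi gene piwil2 had 124, 119, 113 and 129 TPM in testes and 18.1, 51, 69.4 and 56.8 TPM in ovaries (interval 0.59 to 1.61, adjusted p = 0.00942). In both, every testis was above every ovary.

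The name piwil1 is carried by 4 genes, which are similar enough for reads to be split among them. The most abundant, ENSACLG00000014540, had 352, 308, 399 and 293 TPM in testes and 6.37, 92.3, 116 and 87.2 TPM in ovaries (log2 fold change 2.09, 0.81 to 3.37, adjusted p = 0.03), a call lost without testes 1, 2 or 3 or ovary 2 or 4 (0.0539 to 0.0739). ENSACLG00000005074 had 20.5, 15, 25.5 and 13.5 TPM in testes and 8.59, 8.38, 13.1 and 3.56 TPM in ovaries, and was not called (0.80, -0.42 to 2.01, adjusted p = 0.322). The other two did not pass the filter on low counts, with at most 0.376 TPM in any testis. The Tudor scaffold gene tdrd6 was higher by 2.30 (adjusted p = 0.0188), a call lost without testes 1 or testes 3 (0.0533 and 0.054).

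Several germ cell identity genes, chosen after their values were seen, were not called and overlapped between the organs. The RNA-binding protein gene dazl had 191, 177, 181 and 251 TPM in testes and 94.4, 173, 173 and 187 TPM in ovaries (log2 fold change -0.08, -0.58 to 0.42). The interval of dnd1, a germ cell survival gene, was -1.19 to 0.37. The nanos3 gene, needed for primordial germ cells, had 200, 179, 148 and 214 TPM in testes and 4.77, 124, 197 and 192 TPM in ovaries, where ovary 1 alone was low (interval -1.05 to 2.05). These intervals leave room for moderate differences in either direction.

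Spermatogonial markers, found in the dividing stem and progenitor cells of testes, were not higher in testes as a list. Of 22 members, 16 were tested, 1 was higher (6.25%, beside 12.0% over all genes) and 4 were lower (25%, beside 9.31%). The counts were 1 and 6 without ovary 1. Without testes 1, 2 or 4, 3 of 16 were called in all. Over all genes these were 2021 of 17831, 2431 of 17929 and 2913 of 17967. The median log2 fold change was -0.22. The ETS factor genes etv5a and etv5b, which maintain spermatogonial stem cells in mouse, were lower by -1.52 and -1.53 (adjusted p = 0.00463 and 0.00846). For etv5a the levels were 21.8, 18, 24.3 and 29.9 TPM in testes, against 39.1, 51.6, 58.6 and 52.5 TPM in ovaries, with no overlap. The zinc finger gene sall4 (-1.26, adjusted p = 0.0222) and the receptor gene GFRA1 (-1.22, 0.0394) were also lower. Without testes 1, 2 or 4 both lost the call (0.0506 to 0.11), and GFRA1 also without testes 3 or ovary 3 (0.111 and 0.0635). The gene zbtb16a, a copy of the stem cell factor PLZF, was under 1 TPM in every library (0.38, -0.65 to 1.41), and ndrg1b, a growth arrest gene chosen after its values were seen, was higher (2.23, adjusted p = 0.00893). These markers were not confined to germ cells. Their summed TPM was 1299 to 1778 in brain, by another protocol, against 534 to 588 in testes and 209 to 836 in ovaries. The cells behind the lower calls were not tested. The markers are also expressed by other germ cells, and nanos2, the marker most particular to spermatogonia, did not pass the filter, at 1.68 TPM or below.

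Oocyte transcription and growth factors had 0 of 10 members higher in testes and 3 lower (30%, beside 9.31% over all genes). The counts were the same without ovary 1, and the median log2 fold change was -0.57. No member was higher at an unadjusted p under 0.05 or by DESeq2, beside 3123 and 2942 of 17500 over all genes. The gene figla (chromosome 12, 5158969 to 5168506), which switches on the egg envelope genes, had 250, 221, 294 and 308 TPM in testes and 111, 373, 333 and 369 TPM in ovaries (log2 fold change -0.48, -1.01 to 0.05, adjusted p = 0.179). The oocyte growth factor gene gdf9 had 114, 147, 114 and 142 TPM in testes and 92.9, 159, 180 and 192 TPM in ovaries. Its log2 fold change was -0.76 (adjusted p = 0.0464), the groups overlapped in TPM, and the call was lost without any of the 4 testes, ovary 3 or ovary 4 (0.0683 to 0.152). Its partner bmp15 had a log2 fold change of -0.37 with a standard error of 0.28.

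The remaining calls were the TGF-beta family gene gdf3 (copy ENSACLG00000021339) and the oocyte factor gene lhx8b. For gdf3 the levels were 68.1, 82.4, 84.5 and 78.6 TPM in testes and 130, 150, 158 and 161 TPM in ovaries (log2 fold change -1.42, adjusted p = 0.0076). The gene lhx8b was lower by -2.29 (0.0129), at 0.801 to 2.41 TPM in testes and 5.58 to 9.49 TPM in ovaries. Neither overlapped between the organs. The pluripotency factor gene pou5f3, chosen after its values were seen, had 346, 390, 343 and 367 TPM in testes and 3.13, 436, 427 and 392 TPM in ovaries, where ovary 1 was the exception (0.18, -1.75 to 2.11).

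No egg envelope gene was called: of 8 members tested, 0 were higher and 0 lower in testes by edgeR, also without ovary 1 and by DESeq2, and 1 was lower at an unadjusted p under 0.05. Over all genes 12.0% were called higher and 9.31% lower, and 3130 of 17500 were lower at an unadjusted p under 0.05. The median log2 fold change of the list was -0.40, and 0.13 without ovary 1. The envelope gene zp3c had 3462, 3761, 2425 and 4333 TPM in testes and 2576, 2386, 3516 and 3803 TPM in ovaries (-0.37, -1.27 to 0.53). The interval of zpax1 was -0.83 to 1.01, that of zp3b -0.96 to 0.10, and that of zp3d.2, at 234 to 336 TPM in testes and 320 to 868 TPM in ovaries, -2.42 to -0.15 (adjusted p = 0.101).

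Maternal RNA and oocyte cytoplasm genes had 5 of 46 members higher (10.9%, beside 12.0% over all genes) and 3 lower (6.52%, beside 9.31%), with a median log2 fold change of -0.28. Without ovary 1 there were 7 of 46 higher and 10 lower, beside 19.5% and 17.0% over all genes. By DESeq2 there were 6 higher and 7 lower, beside 2942 and 2383 of 17500 over all genes. The gene zar1 (chromosome 23, 8466879 to 8469230), required for the start of development in mouse, had 1855, 2328, 1327 and 2333 TPM in testes and 1441, 1180, 2038 and 1948 TPM in ovaries (0.08, -0.65 to 0.81). The meiotic arrest kinase gene mos had a log2 fold change of -0.49 with a standard error of 0.27. For btg4, a factor in maternal RNA clearance, the log2 fold change was -0.50 (-0.94 to -0.06, adjusted p = 0.101), and without ovary 1 it was -0.57 (adjusted p = 0.0147).

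Among members called lower, the oocyte kinase gene wee2 had 48.2, 63.4, 82.5 and 76.4 TPM in testes and 75.6, 170, 138 and 173 TPM in ovaries (interval -1.69 to -0.70, adjusted p = 0.00552). FBXO43 (Emi2), which holds the egg in meiotic metaphase and was chosen after its values were seen, was lower by -1.29 (0.00218). In TPM both overlapped between the groups through ovary 1. The ubiquitin ligase gene trim36, which patterns the cortex of frog eggs, had 18.2, 17.7, 26.8 and 44.8 TPM in testes and 171, 73.4, 102 and 86.2 TPM in ovaries (-2.68, 0.0146), and its call was lost without testes 1 or testes 3 (0.0541 and 0.0514).

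Members called higher included tdrd6, given above, and KPNA2, an importin gene that shares its name with another entry (log2 fold change 2.61, adjusted p = 0.0034). The translation regulator genes CPEB4 and cpeb4a (3.31 and 2.51) and the RNA-binding protein gene larp6b (8.88) were chosen after their values were seen. The larp6b gene had 69.8, 41.2, 124 and 14.2 TPM in testes and 0, 0.278, 0.0553 and 0.11 TPM in ovaries (adjusted p = 0.000916). Testes 4 was again the lowest testis.

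Through yolk uptake and processing genes oocytes take up vitellogenin and cut it. Of 33 members, 26 were tested, 2 were higher and 2 lower (7.69% each way, beside 12.0% and 9.31% over all genes). The median log2 fold change was -0.13. Without ovary 1, 4 of 26 were higher and 5 lower, beside 19.5% and 17.0% over all genes. Without testes 1, 2 of 26 were called in all, beside 2021 of 17831 over all genes. The yolk receptor gene vldlr had 670, 780, 441 and 689 TPM in testes and 475, 576, 727 and 811 TPM in ovaries (-0.33, -1.03 to 0.38). The yolk protease gene ctsd had 94.6, 103, 96 and 92.7 TPM in testes and 23.5, 69.3, 46.6 and 46.2 TPM in ovaries and was not called (0.55, 0.08 to 1.02, adjusted p = 0.0898), but was without ovary 1 (0.67, adjusted p = 0.0132).

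The lysosomal protease gene ctsc (-1.24, adjusted p = 0.0197) and the proton pump gene ATP6V1A (-0.86, 0.0154) were lower. The ctsc call was lost without testes 1, 2 or 4 (0.06 to 0.0643), and that of ATP6V1A, which shares its name and overlapped in TPM, without testes 1 or 3 (0.0697 and 0.0549). Both members called higher were receptor genes at low levels: ldlra had 1.06 to 1.32 TPM in testes and 0.108 to 0.242 TPM in ovaries (2.41, 0.0127), and LRP8, another shared name, had 85.7 times the counts (counting interval 23.4 to 713).

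Among the lists of somatic genes, the largest log2 fold changes down and up lay in the granulosa and Leydig lists, which hold steroid genes. Some genes of no list went further, as given below. Of 39 granulosa and theca cell genes, 29 were tested, with a median log2 fold change of -0.85. In testes 3 were higher (10.3%, beside 12.0% over all genes) and 9 lower (31.0%, beside 9.31%). The counts moved with 3 libraries, as did those over all genes. Without ovary 1, 5 of 33 were higher and 14 lower, beside 19.5% and 17.0% over all genes. In all 4 of 32 were called without testes 1 and 7 of 30 without ovary 3. Over all genes these were 2021 of 17831 and 2876 of 18012. The fold change of cyp19a1a (chromosome 1, 11414677 to 11417690), with the levels given above, was -9.48 (-11.80 to -7.16, adjusted p = 0.000948). The gene hsd17b1 (chromosome 4, 8369231 to 8371804), which makes the active estrogen estradiol, had 0.775, 1.23, 1.23 and 0.314 TPM in testes and 62.4, 198, 68.1 and 23.7 TPM in ovaries (-7.10, -8.94 to -5.27, adjusted p = 0.00114). The retinoic acid hydroxylase gene cyp26a1 was lower by -1.90 (0.00958), at 97.4 to 238 TPM in testes and 400 to 504 TPM in ovaries.

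A pair of other genes that carry the aromatase name CYP19A1, shared by 3 entries of the table, went the opposite way. The remaining entry is not described here, and reads of the copies may not be separable. ENSACLG00000008094 had 220, 115, 117 and 127 TPM in testes and 3.34, 55.3, 8.51 and 8.09 TPM in ovaries (log2 fold change 2.89, 1.29 to 4.48, adjusted p = 0.0197). In brain it had 177 to 732 TPM. ENSACLG00000010505 had 489, 425, 439 and 289 TPM in testes and 1.71, 135, 15.8 and 11.7 TPM in ovaries (3.32, 1.14 to 5.49, adjusted p = 0.0386), but 0.224 to 6.2 TPM in brain.

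Neither pair of groups overlapped, and ovary 2 was the highest ovary for both. The call of ENSACLG00000008094 was lost without testes 1 or ovary 3 (0.0592 and 0.0529), and that of ENSACLG00000010505 without any of the 4 testes, ovary 3 or ovary 4 (0.0552 to 0.0919). ENSACLG00000008094 had 225 to 305 CPM in testes of M. zebra and 110 to 203 CPM in those of T. sp. 'mauve', and ENSACLG00000010505 had 120 to 184 and 98.2 to 261 CPM. The growth factor binding gene igfbp5a, chosen after its values were seen, was the other member called higher (3.14, adjusted p = 0.0205), at 1.7 TPM or less in any library, and its call was lost without testes 1 or ovary 3 (0.0685 and 0.0623).

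Of 23 Leydig cell and androgen synthesis genes, 21 were tested, with a median log2 fold change of 1.45. In testes 5 were higher (23.8%, beside 12.0% over all genes) and 1 lower (4.76%, beside 9.31%). Without ovary 1, 10 of 22 were higher and 4 lower, beside 19.5% and 17.0% over all genes. The 11-beta-hydroxylase gene cyp11c1 (chromosome 11, 21189554 to 21207550), which makes the fish androgen 11-ketotestosterone together with hsd11b2, had 10.1, 6.95, 9.91 and 7.71 TPM in testes and no counts in ovaries, at least 343.2-fold higher. The partner hsd11b2 had 47.1, 38.6, 33.7 and 26.1 TPM in testes and 0.964, 2.57, 1.68 and 0.577 TPM in ovaries (4.20, 3.06 to 5.33, adjusted p = 0.00129). The hydroxylase gene cyp17a2 was higher by 4.68 (0.00261), at 24.3 to 57.1 TPM in testes and 0.472 to 4.1 TPM in ovaries.

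Other genes of the pathway that are named here had lower log2 fold changes. The cholesterol transport gene star (chromosome 12, 24609133 to 24611893) had 487, 413, 480 and 297 TPM in testes and 41.6, 105, 45.9 and 10.8 TPM in ovaries (log2 fold change 2.47, 1.09 to 3.84, adjusted p = 0.0203), and lost its call without testes 1, testes 3 or ovary 3 (0.0529 to 0.0584). For hsd3b1 the log2 fold change was 2.01 (adjusted p = 0.0401), with calls lost without any of the 4 testes, ovary 3 or ovary 4 (0.0505 to 0.105). The gene cyp17a1, which makes precursors of both sex steroids, had 297, 403, 321 and 277 TPM in testes and 201, 243, 129 and 45 TPM in ovaries and was not called (0.53, -0.74 to 1.79). The member called lower, hsd3b7 of bile acid synthesis, was chosen after its values were seen (-1.71, 0.00338).

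**Figure D4:**
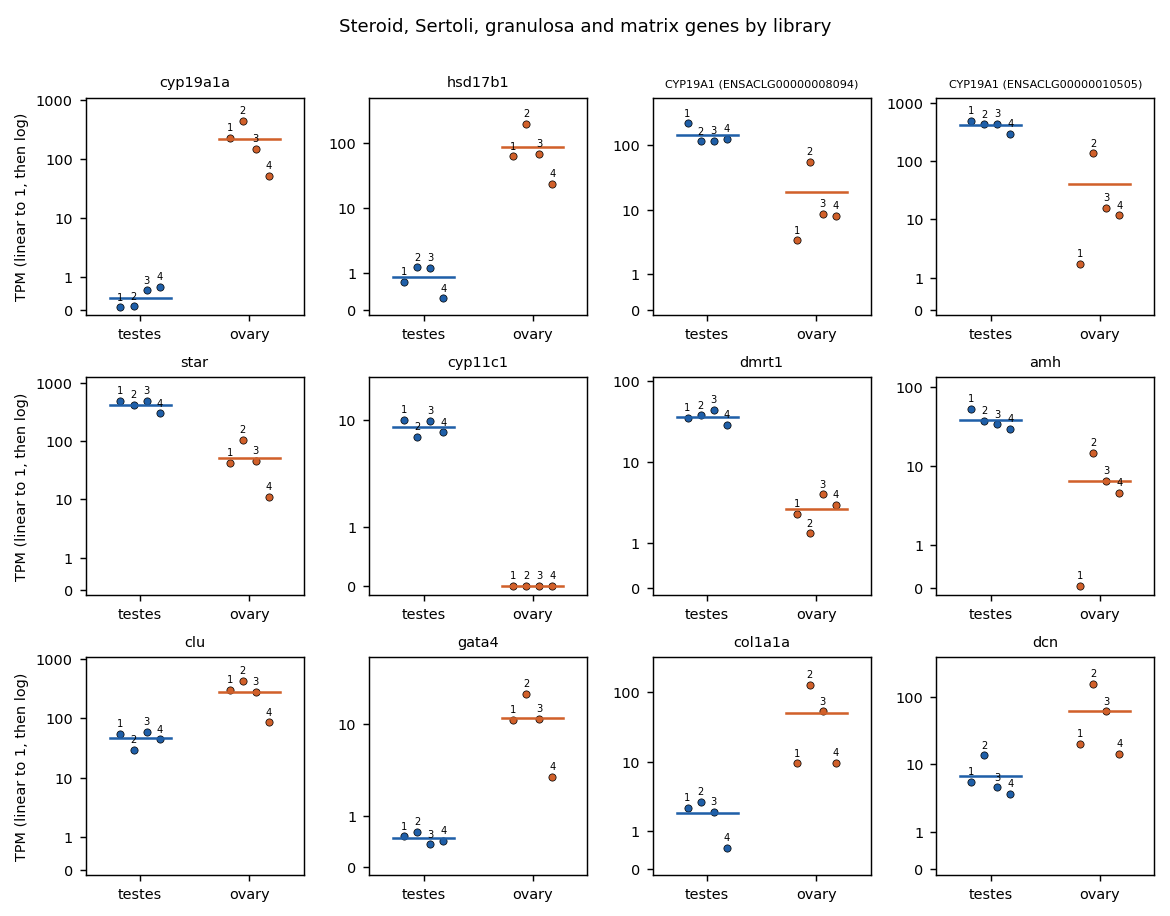
TPM per library of 12 somatic genes (axis linear up to 1 and logarithmic above), testes on the left, bars at the means. The gene cyp19a1a is at 0.696 TPM or less in testes and 51.8 TPM or more in ovaries, whereas both CYP19A1 entries, star, cyp11c1, dmrt1 and amh are higher in testes in TPM.

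Sertoli cell and testis somatic genes went both ways. Of 38 members, 32 were tested, with a median log2 fold change of -0.80. In testes 5 were higher (15.6%, beside 12.0% over all genes) and 8 lower (25%, beside 9.31%). Without ovary 1, 7 of 33 were higher and 14 lower, beside 19.5% and 17.0% over all genes. Without testes 1, 8 of 33 were called in all, beside 2021 of 17831 over all genes. The list summed to 924 to 1196 TPM in brain, against 402 to 527 TPM in testes and 356 to 1087 TPM in ovaries. The male sex-determination factor gene dmrt1 (chromosome 12, 35359090 to 35396772) had 35.6, 37.9, 44.7 and 29 TPM in testes and 2.3, 1.33, 4.01 and 3.01 TPM in ovaries (3.38, 2.41 to 4.36, adjusted p = 0.00161). The tight junction gene cldn11a, a seal of the Sertoli barrier, had 108, 105, 137 and 111 TPM in testes and 0, 16.3, 8.47 and 2.3 TPM in ovaries (4.01, 0.0207), and its call was lost without testes 1, testes 3 or ovary 3 (0.052 to 0.0568).

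The anti-Muellerian hormone gene amh (chromosome 23, 11276034 to 11280143) had 53.5, 37.4, 34 and 29.5 TPM in testes and 0.0491, 14.8, 6.41 and 4.6 TPM in ovaries. It did not overlap but was not called (log2 fold change 2.57, 0.52 to 4.62, adjusted p = 0.0749). It was called without ovary 1 (2.18, adjusted p = 0.00562), without ovary 2 (3.32, 0.0472), by DESeq2 (2.63, 0.0077) and over all 14 AC libraries (2.55, 0.0315). The gene sox9b was higher by 1.16 (adjusted p = 0.0358), at 5.19 to 7.16 TPM in testes and 1.05 to 2.73 TPM in ovaries. Its call was lost without any of the 4 testes or ovaries 2, 3 or 4 (0.0556 to 0.116).

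Members called lower are known in somatic cells of both gonads. The factor gene gata4 had 0.599, 0.681, 0.444 and 0.513 TPM in testes and 11.1, 20.8, 11.2 and 2.66 TPM in ovaries (log2 fold change -4.83, adjusted p = 0.00249), and wt1b, a copy of the Wilms tumor factor gene, was lower by -4.99 (0.0041). Both were chosen after their values were seen. The clusterin gene clu, abundant in rodent Sertoli cells, had 55.3, 29.4, 59.8 and 44 TPM in testes and 304, 426, 280 and 85.9 TPM in ovaries (-3.16, 0.00653). The gene sox8a was lower by -1.81 (0.0175), and inha, the inhibin subunit gene that granulosa cells also make, by -1.55 (0.0303). Calls were lost for sox8a without testes 1 or 3 (0.0636 and 0.06) and for inha without any of the 4 testes (0.0651 to 0.0942).

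Matrix and smooth muscle genes had more members lower than higher in testes. Of 43 members, 40 were tested, 11 were lower (27.5%, beside 9.31% over all genes) and 1 was higher (2.5%, beside 12.0%). The counts were 17 and 1 without ovary 1, and the median log2 fold change was -1.06. The fibrillar collagen gene col1a1a had 2.13, 2.59, 1.86 and 0.558 TPM in testes and 9.42, 129, 53.3 and 9.5 TPM in ovaries (-4.86, adjusted p = 0.00646). Its copy col1a1b was lower by -4.72 (0.0114), the proteoglycan gene dcn by -3.56 (0.00904) and the matrix gene sparc by -3.38 (0.00381). The smooth muscle actin gene acta2 (ENSACLG00000018137, a shared name) was lower by -3.38 (0.0226) with overlap in TPM, and its call was lost without testes 1, 3 or 4 (0.0647 to 0.0749). The other copy named acta2, ENSACLG00000016157, was not called (-1.87, adjusted p = 0.0628) but was without ovary 4 (-2.22, 0.0128), by DESeq2 (-1.89, 0.0117) and over all 14 AC libraries (-1.91, 0.0149). The smooth muscle myosin genes myh11a and myh11b had intervals of -1.25 to 1.69 and -0.21 to 2.05. The member called higher was col5a2b, chosen after its values were seen, at 3.18 to 4.99 TPM in testes and 0.147 TPM or less in ovaries (5.77, 0.00256).

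Markers of other cell types that a dissected gonad can hold were checked in the same libraries. Of 18 leukocyte markers, 12 were tested and 4 were lower in testes (33.3%, beside 9.31% over all genes), none higher. The median log2 fold change was -1.66, with 6 lower and 0 higher at an unadjusted p under 0.05 and by DESeq2. Over all 17500 genes, 3130 were lower and 3123 higher at that p, and 2383 and 2942 by DESeq2. Their summed TPM was 304 to 991 in testes and 179 to 891 in ovaries. The macrophage genes MPEG1 (-3.28, adjusted p = 0.00474, a shared name) and c1qc (-2.92, 0.00893) and the myeloid factor gene spi1b (-2.86, 0.0176) were lower, as was tnfrsf1b (-2.30, 0.0423). The spi1b call was lost without testes 1 or 2 (0.0659 and 0.0603) and that of tnfrsf1b without any of the 4 testes or ovaries 2 or 3 (0.0699 to 0.119). The leukocyte surface gene ptprc (CD45) had 1.61, 1.35, 3.24 and 12.7 TPM in testes and 1.79, 14.2, 8.22 and 13.9 TPM in ovaries (-2.74 to 0.58), and was called lower without testes 4 (-2.13, adjusted p = 0.0481). In testes 1 the antigen presentation gene cd74b, chosen after its values were seen, reached 759 TPM, against 33.3 to 139 TPM in the other testes and 88.8 to 456 TPM in ovaries.

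Of 13 endothelial markers, all tested, esamb was higher (2.83, adjusted p = 0.0185) and fli1b lower (-1.87, 0.0374). That was 7.69% each way, beside 12.0% higher and 9.31% lower over all genes. The vessel genes kdrl and cdh5 had intervals of -1.33 to 1.57 and -0.79 to 1.75. Calls were lost for esamb without testes 1 or 3 (0.0657 and 0.0586) and for fli1b without any of the 4 testes or ovaries 2 or 3 (0.0613 to 0.117). Summed TPM of the list was 33.5 to 60.8 in testes and 21.2 to 115 in ovaries. Of 4 erythrocyte markers tested out of 8, 1 was lower in testes (25%, beside 9.31% over all genes) and 0 higher. It was the blood factor gene gata1a (-3.41, 0.00249), at 0.294 to 0.737 TPM in testes against 3.39 to 5.59 TPM in ovaries. The heme synthesis gene alas2 had an interval of -4.42 to -0.24 (adjusted p = 0.106) and was called without ovary 4 (-2.73, 0.0355). Erythrocyte sums were 3.59 to 7.10 TPM in testes and 8.10 to 21.0 TPM in ovaries.

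Liver, exocrine pancreas and gut markers were sparse, with 4 tested of 15 and 4 of 11. Of these, 3 liver and 2 pancreas and gut markers were higher (75% and 50%, beside 12.0% over all genes) and 0 lower. By DESeq2, 2 pancreas and gut markers were higher and 1 lower, beside 2942 and 2383 of 17500 over all genes. Without ovary 1, 3 of 4 were higher and 1 lower, beside 19.5% and 17.0% over all genes. The liver counts were 3 and 0 in both. The transferrin gene tfa had 293, 335, 395 and 241 TPM in testes and 22.4, 69.1, 39.3 and 25.2 TPM in ovaries (log2 fold change 2.58, adjusted p = 0.00189), and the pancreatic carboxypeptidase name CPA1, which is shared, was higher by 4.03 (0.00571) in the copy ENSACLG00000012419. The copy ENSACLG00000012457 was not called (1.51, adjusted p = 0.0819) but was without ovary 1 (1.96, 0.0175) and with total counts (1.84, 0.0359). Without ovary 4, 1 pancreas and gut marker was higher and 2 were lower, against 2 and 0 over the 8 libraries. Over all genes, 1943 were higher and 1666 lower of 18108 without ovary 4. The sums of these lists were 246 to 399 and 94.1 to 157 TPM in testes, against 25.0 to 70.8 and 4.68 to 29.8 TPM in ovaries. In brain, by another protocol, they were 127 to 380 and 40.2 to 60.9 TPM. The tfa gene made up most of the liver sum in both gonads. The copper carrier gene cp (4.42, 0.00182), fetub (ENSACLG00000025049, 2.77, 0.0304) and the elastase gene CELA3A (2.98, 0.0442) were higher at 3.8 TPM or below. Calls were lost for fetub without any of the 4 testes or ovary 3 (0.0591 to 0.0893) and for CELA3A without any of the 4 testes or ovaries 2, 3 or 4 (0.0515 to 0.127). The part of these tissues in the gonad differences was not tested.

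Of 22 skeletal muscle markers, 10 were tested, 1 was higher (10%, beside 12.0% over all genes) and 2 were lower (20%, beside 9.31%). The actin gene ACTA1 had 0.296, 0.451, 0.532 and 0.171 TPM in testes and 31, 9.57, 12.2 and 0.655 TPM in ovaries (log2 fold change -5.99, adjusted p = 0.00959), and the troponin gene tnni2a.1 was lower by -3.85 (0.0255), with the call lost without any of the 4 testes (0.0634 to 0.0808). The giant filament gene neb was higher by 6.07 (0.00101) at under 1 TPM. Myoglobin, mb, chosen after its values were seen, had 4565, 5327, 2886 and 4702 TPM in testes and 3199, 2640, 4702 and 5556 TPM in ovaries (-1.32 to 0.50), and made up most of the sum of this list. Of 22 neuron and glia markers, 11 were tested, 3 were higher (27.3%, beside 12.0% over all genes) and 1 lower (9.09%, beside 9.31%). Higher were SNAP25 (4.51, 0.00238), syt1a (3.59, 0.0156) and elavl4 (3.04, 0.0176), all at 5.13 TPM or below. The synaptic vesicle gene sypa was lower (-1.87, 0.0274). The copy snap25a had an interval of -3.54 to 0.73. The calls of syt1a, elavl4 and sypa were lost without testes 1 or 3, and that of sypa also without ovary 3 (0.0502 to 0.0896).

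Mitotic cell cycle genes, which dividing cells of either organ use, had 7 of 61 members higher (11.5%, beside 12.0% over all genes) and 2 lower (3.28%, beside 9.31%), all tested, and a median log2 fold change of 0.07. The counts moved with single libraries, as did those over all genes. Without ovary 1, 13 of 61 were higher and 4 lower, beside 19.5% and 17.0% over all genes. In all 4 of 61 were called without testes 1 or 3 and 5 of 61 without ovary 3. Over all genes these were 2021 of 17831, 2235 of 17782 and 2876 of 18012. The proliferation marker mki67 had 29.1, 21.6, 37.3 and 28.4 TPM in testes and 3.73, 14.3, 10.3 and 8.26 TPM in ovaries (1.54, 0.93 to 2.15, adjusted p = 0.00471). The replication clamp gene pcna had 153, 156, 166 and 221 TPM in testes and 86.1, 136, 111 and 133 TPM in ovaries and was not called (0.15, -0.42 to 0.72). The cell cycle kinase gene cdk1 (ENSACLG00000004925, a shared name) had an interval of 0.01 to 1.56 (adjusted p = 0.137) and was called without ovary 1 (1.09, 0.0256) and with total counts (1.08, 0.0293). The copy ENSACLG00000004173 had an interval of -0.46 to 2.51.

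Among the called, the thymidylate synthase gene tyms (0.95, adjusted p = 0.0274), the centriole kinase gene plk4 (0.93, 0.0448) and the cytokinesis motor gene kif23 (ENSACLG00000014311, interval 0.43 to 1.97, 0.0346) were higher. The depolymerase gene kif2c (-1.15, 0.0296) and the cyclin gene ccne1 (-1.04, 0.00418), chosen after its values were seen, were lower. Calls were lost for tyms without testes 1, 3 or 4 or ovary 2 or 3 (0.058 to 0.0859), for plk4 without any of the 4 testes or ovaries 2 or 3 (0.0589 to 0.121), for kif23 without testes 1, 2 or 3 or ovary 2 or 3 (0.0663 to 0.102) and for kif2c without testes 1, 2 or 3 (0.0826 to 0.102). The ccne1 gene had 50.9, 48.8, 50 and 52.8 TPM in testes and 68.3, 105, 105 and 90.3 TPM in ovaries, with no overlap.

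The named genes with the largest differences, among those called, without overlap and with a mean of at least 10 CPM in the higher organ, included several that no list holds. Among those higher in testes, the carbonic anhydrase gene ca12 (chromosome 7, 54911675 to 54920660), which balances acid and bicarbonate outside cells, had 2893, 2911, 1916 and 1974 TPM in testes and 0, 1.5, 0 and 0.311 TPM in ovaries (log2 fold change 12.14, standard error 0.83, adjusted p = 0.000161). It was in testes 4 at much the same level as in testes 3, unlike the flagellar genes. The Myc-binding protein partner gene mycbpap had 109, 77.8, 146 and 24.5 TPM in testes and 0.0283 TPM or less in ovaries, a ratio of summed counts of 5913 (counting interval 1636 to 48827). The ring finger gene rnf141, a name shared by 2 entries, had 378, 237, 551 and 101 TPM in testes and no counts in ovaries, at least 1326-fold higher. A pair of the 5 entries named net1 also had no counts in ovaries, at least 737.1-fold higher for ENSACLG00000018036 and 1203-fold for ENSACLG00000018084.

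On the ovarian side, the folate receptor gene folr (chromosome 14, 27753808 to 27757237) had 0.349, 0.211, 0 and 0.102 TPM in testes and 197, 141, 64.6 and 4.85 TPM in ovaries (log2 fold change -10.25, -13.92 to -6.58, adjusted p = 0.0033). The matrix gene sparcl1, a relative of sparc, had 0.283, 0.141, 0.388 and 0.278 TPM in testes and 27.6, 240, 75.7 and 29.8 TPM in ovaries (-8.56, 0.000584). The endothelin receptor gene ednrab (-6.19, 0.00293), the retinoic acid binding gene crabp2b (-5.87, 0.000588) and si:ch211-219a15.3, whose name gives no function (-7.46, 0.00182), were lower too. With cyp19a1a, hsd17b1 and ACTA1 these make up the 8 largest decreases among named genes that were called, had no overlap and reached a mean of 10 CPM in ovaries. None of the 8 is in the oocyte factor or egg envelope lists. Those lists hold only 10 and 8 of the 13744 named genes tested, so their absence among 8 genes says little.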

How the data were processed

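Messenger RNA of 4 AC testes and 4 AC ovaries was sequenced after poly(A) selection with a strand-specific protocol. The authors trimmed reads with Trimmomatic 0.39 and estimated the deposited expected counts per gene with Salmon 1.5.1 against transcripts of the fAstCal1.2 assembly, with corrections for sequence and GC bias (78.4% of values are whole numbers). The deposited score per gene of the companion table is labelled length-scaled TPM but behaves as TPM. Every library sums to 1000000, not to its count total, once 382 repeated rows of 27359 are dropped. The deposited raw counts of a further pair of tables came from STAR 2.5.4b and TEtranscripts, with 774 transposable element rows left out of the alternative fit, and 4 columns of authors' means were not used.

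Counts were rounded and fitted for the 8 libraries with the robust quasi-likelihood test of edgeR 4.0.16 (R 4.3.3), after filterByExpr, with TMM scaling and Benjamini-Hochberg adjustment over 17500 genes. The script was tested on simulated data. Intervals are at the 95% level. For log2 fold changes they are symmetric, with a standard error derived from the fold change and the F statistic. They are approximate, above all where a group is near 0. A fold against ovaries at 0 uses a floor of 3 counts over the group. Such floors and the intervals of count ratios cover counting error only. Single values per library were compared by an exact permutation test in SciPy 1.17.1. Alternatives were total counts, DESeq2 size factors, no filter, DESeq2 1.42.0, all 14 AC libraries, the STAR counts, a replicate block and each library left out.

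The members and lists were chosen with earlier results of these data known. Of 744 list entries, 489 matched a name, and the others matched no name and were not analysed here. Named genes are the 8 called genes that moved furthest up and the 8 that moved furthest down, without overlap and at a mean of at least 10 CPM in the higher group, the defining members of each list, and the 4 called members of each list with the highest mean TPM. Of the genes so selected, those that failed the filter are not described, except where named, and 1 is not reported here. Another 25 are marked as chosen after their values were seen, and list genes not named are in the counts. Names repeated over several genes (2323 genes) can split reads. Positions are from RefSeq, assembly fAstCal1.2, matched by symbol for 100 genes. Of the counts, 15.4% to 17.6% fell on unnamed genes.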

Additional observations from a re-analysis of the deposited data

Results flagged for a closer look

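A library was singled out where its gap to the nearest of the other 3 of its organ passed Dixon's 95% critical value. This happened 25 times in 353 groups of 4 libraries, and chance alone gives about 1 in 20. Ovary 1 had 7 of the 25, ovary 2 had 5, ovary 3, testes 1 and testes 3 had 3 each, testes 4 had 2, and ovary 4 and testes 2 had 1 each.

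Ovary 1 was low in assigned counts (18240974), in the summed TPM of yolk genes (1984, against 3578 to 3843 in the other ovaries) and of mitotic genes (6037, against 8915 to 9465), and in the TPM of dazl (94.4), figla (111), pou5f3 (3.13) and sox9b (1.05). Ovary 2 was the highest ovary for inha (257 TPM), both CYP19A1 entries (55.3 TPM for ENSACLG00000008094 and 135 TPM for ENSACLG00000010505) and mybl1 (0.333 TPM), and the lowest for cp (0.0381 TPM). Ovary 3 was the highest for CFAP61 (10.9 TPM), spata18 (0.0992 TPM) and neb (0.0156 TPM), and ovary 4 for lhx8b (9.49 TPM).

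Among testes, testes 1 was the highest in the leukocyte sum (991 TPM, against 304 to 373 in the others), in cd74b (759 TPM) and in CYP19A1 ENSACLG00000008094 (220 TPM). Testes 2 had the lowest TMM factor (1.052). Testes 3 was the highest in the erythrocyte sum (7.10 TPM), crabp2b (1.51 TPM) and fli1b (2.28 TPM). Testes 4 was the lowest for CFAP61 (19.3 TPM) and the highest for ptprc (12.7 TPM).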

How the results depend on the processing

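No called gene that the text names changed direction under the alternatives run. Maternal genes called, 5 higher and 3 lower, became 6 and 7 by DESeq2 and 7 and 10 without ovary 1. Over all genes the share called also moved without ovary 1, from 21.3% to 36.5%. Pancreas and gut markers, 2 and 0 of 4 tested, became 1 and 2 without ovary 4, beside 1943 and 1666 of 18108 over all genes. Of 152 named genes tested, 117 were called and 69 stayed called under each of the 15 alternatives, 10 uncalled genes changed sign, and a left-out library changed the call of 49. Other calls were lost with total counts (terb1, piwil1, gdf9, inha, hsd3b1, CYP19A1, plk4, kif23, tnfrsf1b, fli1b), DESeq2 size factors (rec114, dcst1, GFRA1, gdf9, CELA3A), no filter (gdf9, sox9b, plk4, fetub), STAR counts (cfap20, ift22, gdf9, tyms) and 14 libraries (tyms), and gained for btg4 and alas2 by DESeq2, for zp3d.2 and alas2 over 14 libraries and for ctsd with total counts. All genes called were 3722, but 6354 over 14 libraries, 1625 with the replicate block and 2021 to 6620 with a library left out. DESeq2 called 5325 and total counts 3176, with 2059 higher and 1117 lower. Named genes called were 2829, but 4829 over 14 libraries, 1172 with the block and 1465 to 5162 with a library left out. With the block, 41 of the 152 genes were weaker. Only there were the calls of ddx4, piwil2, rfx2, foxj1a, lhx8b, ldlra, cyp26a1 and ndrg1b lost (adjusted p between 0.0517 and 0.0712). The labels do not state that testes and ovaries of the same number are paired. Correlations of deviations between them were -0.0852, -0.0536, -0.105 and 0.00946 for numbers 1 to 4. They were not set beside those of unlike numbers, so a batch shared by number was not tested. With the block, 4 germline and piRNA, 2 spermatogonial, 10 spermatid, 1 oocyte factor, 1 yolk, 7 Sertoli, 5 granulosa and 5 mitotic genes were called. Calls over all genes fell as well, to 1625 of 17500. DESeq2 called 8 of 16 spermatogonial, 13 of 46 maternal and 14 of 61 mitotic genes, beside 5325 of 17500 over all genes. The fit over 14 libraries called 10 of 19 spermatogonial, 1 of 8 egg envelope, 10 of 23 Leydig and 20 of 36 granulosa genes. Over all genes it called 6354 of 20893. With a library left out, calls ranged from 3 to 7 for spermatogonial, 15 to 34 for intraflagellar transport, 12 to 25 for spermatid, 6 to 17 for maternal, 2 to 9 for yolk, 8 to 21 for Sertoli, 4 to 14 for Leydig, 4 to 19 for granulosa and 4 to 17 for mitotic genes. At 0.5 TPM the difference in genes detected was 2274.25, with the smallest p that 4 against 4 libraries allow, against 1938.5 at 1 TPM. The cause of these shifts was not tested. Limits are 4 libraries an organ, ovary 1 apart and oocyte RNA in testes.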
